A study of Mus musculus with 6 samples.

Results

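The genes described here are Agpat5 and 9 related enzymes of glycerophospholipid synthesis, Agpat1, Agpat2, Agpat3, Agpat4, Gpam, Lpcat1, Pcyt1a, Chka and Chpt1, in the lungs of leptin-deficient mice. Agpat5 was chosen from its values in these same arrays, which were lower with leptin, and the other enzymes were chosen for their function, as a comparison. All probe sets whose platform annotation gave 1 symbol among the 10 were taken, which found 18 probe sets of 8 genes among 20380 probe sets with 1 symbol. Agpat5, Agpat3 and Chka had 1 probe set each, Agpat1 and Gpam 2, Lpcat1 3, and Pcyt1a and Chpt1 4. Agpat2 and Agpat4 had none and were not analysed here.

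All animals were female ob/ob mice of the strain B6.V-Lepob/J, about 1 month old, whose mutated leptin gene gives no functional hormone. The lungs of 3 leptin-treated and 3 saline-treated mice were measured on Affymetrix Mouse 430A arrays, 1 animal and 1 array each, so both groups share the mutation and differ in the agent given. No source used here states the dose, the duration or the route. The mutation is present in the whole animal, and whole-lung RNA mixes all cell types of the organ. The p-values below set the leptin-minus-saline difference against the spread between these samples within groups, a spread partly borrowed from all probe sets tested.

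Glycerophospholipids are built by acylating glycerol 3-phosphate, first by glycerol-3-phosphate acyltransferases such as Gpam and then by the 1-acylglycerol-3-phosphate acyltransferases, the Agpat family, which yield phosphatidic acid. Phosphatidic acid is either dephosphorylated to diacylglycerol or activated to CDP-diacylglycerol. In the choline branch, Chka phosphorylates choline, Pcyt1a makes CDP-choline in the rate-limiting step, and Chpt1 joins it to diacylglycerol to give phosphatidylcholine. In the lung this lipid is the main component of surfactant, and Lpcat1 of alveolar type II cells reacylates lysophosphatidylcholine to its disaturated form.

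The array of saline replicate 1 stood apart and is kept apart below. Its log2 values correlated at 0.438 to 0.447 with those of the other arrays (Pearson's r over probe sets, a description), while pairs among the other 5 arrays gave 0.973 to 0.978. Its 10th percentile of intensity was 57.0, against 16.3 to 19.2 elsewhere. The labelled tissue was borne out on the 5 arrays by Sftpc, the surfactant protein of alveolar type II cells, at 23964 to 29732, whereas saline replicate 1 read 4087. Lung markers were not all low on that array. Of the club cell markers, Scgb1a1 read higher there, at 68879.7 against 18472.6 to 22287.7, and Scgb3a1, Scgb3a2 and Cyp2f2 read lower. Against the female label, that array read 1108.1 and 301.9 for the 2 probe sets of the Y-linked Uty, where the other arrays read 12.7 to 67.3 and 20.9 to 72.5. The Y-linked Eif2s3y read 84.9 there against 1.2 to 3.4. For the Y-linked Kdm5d, that array read 92.1 against 10.6 to 40 and 94.8 against 7.6 to 19. These Eif2s3y and Kdm5d values were close to that array's 10th percentile of 57.0, near the bottom of what it measured. Another Kdm5d probe set read lower there, at 50.3 against 76 to 137.6. Xist, of the inactive X chromosome, read 7896.0 there against 2697.3 to 3645.6 for its brightest probe set, but 578.0 against 1055.2 to 1553.0 for the next. The comparison is therefore given on 5 arrays (3 leptin, 2 saline) and on all 6.

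Agpat5 read about 4-fold lower with leptin than on saline replicates 2 and 3. Its probe set (1434287_at, Entrez Gene 52123) read 99.2, 92.9 and 92.2 on leptin replicates 1, 2 and 3. It read 490.3 and 292.3 on saline replicates 2 and 3, and 72.1 on saline replicate 1. The leptin arrays were thus close together and below both of these saline arrays, and the array kept apart was the lowest of the 6.

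The mean of Agpat5 was 94.8 ± 3.86 (SD, n = 3) with leptin and 391 ± 140 (SD, n = 2) on saline replicates 2 and 3, a ratio of 4.13 of saline over leptin. On the log2(intensity + 22.0) scale the difference was -1.78 ± 0.24 (SE) on 5 arrays. This lay below -0.33, the 5th percentile of the differences of the 15838 probe sets tested there. With all 6 arrays the saline mean was 285 ± 209 (SD, n = 3) and the difference -1.08 ± 0.64 (SE), and 455 probe sets (2.87%) had a difference at or below it, Agpat5 included. These values chose the gene, so they are a description and carry no p-value.

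The size of the difference depended on the saline array. Without saline replicate 2 the Agpat5 difference was -1.43 and without saline replicate 3 it was -2.13, whereas leaving out any leptin array gave -1.81 to -1.77. The 72.1 on saline replicate 1 was close to that array's 10th percentile of 57.0, so it lay near the bottom of what that array measured. The leptin values of 92.2 to 99.2 were also low, not far above 79.9, the 25th percentile of all values. The size thus depended on the pseudocount too. On 5 arrays the difference was -1.99 with a pseudocount of 1 and -1.40 with 79.9. The series counted a gene as changed when at least 6 of 9 pairwise comparisons reached 1.5-fold together with a p-value criterion. For Agpat5, 6 of 9 pairs were lower by 1.5-fold with leptin and 0 were higher. All 6 were pairs with saline replicates 2 and 3. Among all tested probe sets 1.34% reached that pair count in the lower direction.

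**Figure D1:**
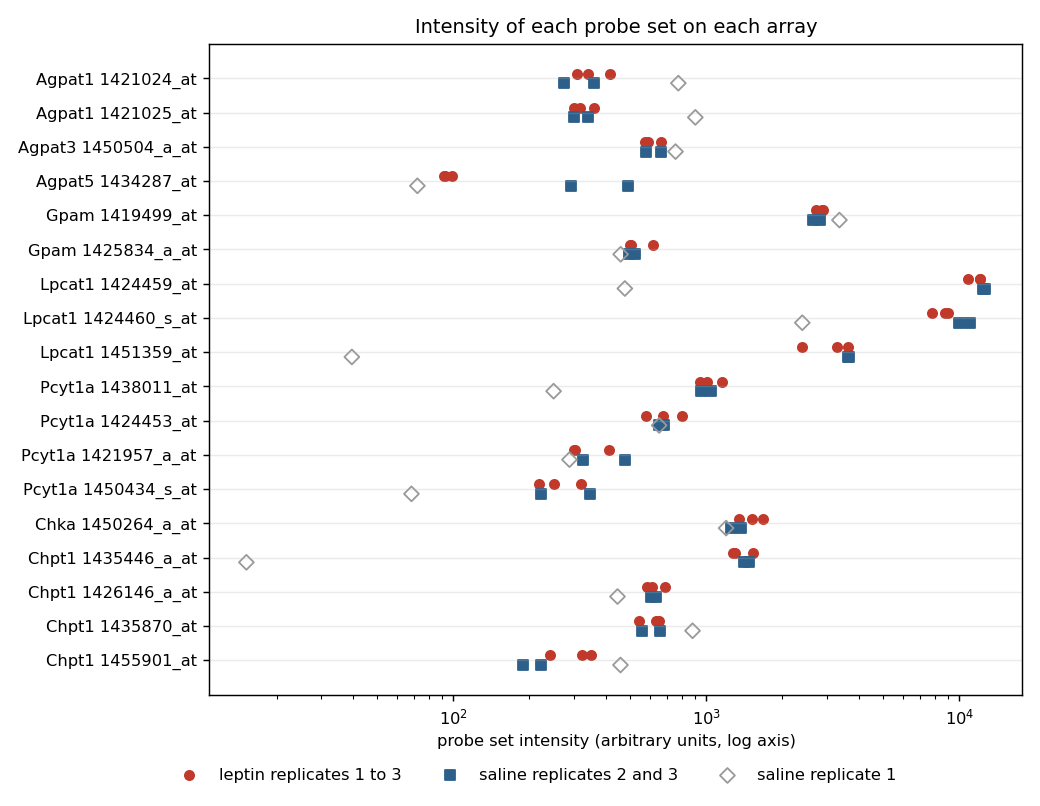
Intensity (arbitrary units, log axis) of each of the 18 probe sets on each array, with leptin arrays as red circles, saline replicates 2 and 3 as blue squares and saline replicate 1 as an open diamond. Agpat5 separates leptin (92.2 to 99.2) from saline replicates 2 and 3 (292.3 and 490.3), while saline replicate 1 lies at 72.1 there. Saline replicate 1 lies far below the other arrays for Lpcat1, for Pcyt1a 1438011_at and 1450434_s_at and for 1 Chpt1 probe set.

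The related enzymes did not share the low values of Agpat5. On 5 arrays the log2 differences of their 17 probe sets ran from -0.29 to 0.51 with a median of 0.01, against a median of 0.00 over all 15838 probe sets tested. Of the 17, 10 were higher and 7 lower with leptin, where 50.3% of all probe sets were higher. None passed the limma threshold (adjusted p = 1.00 for each, Benjamini-Hochberg over all probe sets), where 0.0442% of all probe sets passed, 7 in number. At an unadjusted p under 0.05 there were 2 of 17 (11.8%), against 4.6% of all probe sets.

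The precision of the 5 arrays bounded these differences. Of the 17, 0 reached 1.5-fold, which 2.15% of all probe sets did. All 17 had a 95% interval of the log2 difference within -1 to 1, as did 94.8% of all probe sets. The outermost bounds were -0.69 for a Pcyt1a probe set and 0.96 for a Chpt1 probe set. A missed threshold does not show that the enzymes were equal in both groups.

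Of the first acylation step, Gpam, the mitochondrial glycerol-3-phosphate acyltransferase, read 2707.9, 2863.6 and 2903.5 with leptin, against 2806.2 and 2639.1 on saline replicates 2 and 3 for 1419499_at. The groups overlapped, and the log2 difference was 0.05 (95% interval -0.20 to 0.31). The other Gpam probe set, 1425834_a_at, was at 0.07 (-0.27 to 0.42), also with overlap. Saline replicate 1 read 3359.9 and 458.6 for the 2 probe sets, within 1.21-fold of the mean of the other arrays for each of them.

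Of the second step, Agpat1, an acyltransferase of the endoplasmic reticulum, read 417.0, 341.6 and 307.2 with leptin, against 360.3 and 274.5 on saline replicates 2 and 3 for 1421024_at. Its log2 difference was 0.15 (-0.27 to 0.58), and that of 1421025_at was 0.02 (-0.35 to 0.39). Agpat3, another family member, read 662.9, 586.6 and 571.8 against 662.9 and 579.6 and was at -0.03 (-0.36 to 0.30). The groups overlapped for all 3 probe sets. The family members on the array thus gave differences of -0.03 to 0.15 on the log2 scale beside the -1.78 of Agpat5. The difference between Agpat5 and its relatives was not tested, since the same contrast chose Agpat5.

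In the choline branch, Chka, choline kinase alpha, read 1509.4, 1681.4 and 1344.3 with leptin, against 1251.8 and 1369.2 on saline replicates 2 and 3. The leptin array of replicate 3 lay inside the saline range, and the log2 difference was 0.20 (-0.11 to 0.51). The 4 probe sets of Pcyt1a, the rate-limiting enzyme, lay between -0.23 and 0.05, and the groups overlapped for each of them. For 1438011_at, the brightest, the values were 1157.9, 941.5 and 1010.2 against 1040.3 and 953.3, a difference of 0.05 (-0.27 to 0.37).

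Chpt1, the cholinephosphotransferase of the last step, gave probe sets that disagreed. Its probe sets 1435446_a_at, 1426146_a_at and 1435870_at overlapped between groups with log2 differences of -0.08, 0.01 and 0.00. The other, 1455901_at, read 241.1, 322.6 and 349.0 with leptin, against 188.8 and 221.1 on saline replicates 2 and 3. All leptin values lay above both of these saline values, with a difference of 0.51 ± 0.20 (SE; 95% interval 0.07 to 0.96, limma adjusted p = 1.00). Saline replicate 1 read 457.9 for this probe set, above the leptin arrays, and with it the difference was 0.15 ± 0.39 (SE, limma adjusted p = 0.841).

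Lpcat1, the acyltransferase of surfactant phosphatidylcholine, was lower with leptin on 5 arrays for all 3 of its probe sets without passing the threshold. Probe set 1424460_s_at read 8807.3, 7829.1 and 9050.7 with leptin, against 11013.3 and 9946.4 on saline replicates 2 and 3, a log2 difference of -0.29 ± 0.11 (SE; 95% interval -0.54 to -0.04, limma adjusted p = 1.00). Probe set 1424459_at read 12056.0, 12031.0 and 10808.0 against 12699.4 and 12390.2, at -0.11 (-0.34 to 0.12). Probe set 1451359_at read 2396.0, 3632.3 and 3281.2 against 3659.0 and 3642.3, at -0.25 (-0.62 to 0.11).

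The groups did not overlap for any of these 3 Lpcat1 probe sets, although leptin replicate 2, at 3632.3, came close to the lower saline array, at 3642.3, for the last of them. Of the 17 related probe sets, 3 (17.6%) were lower without overlap, where 9.66% of all probe sets were, and 1 (5.88%) was higher without overlap, where 9.92% were. The 3 lower ones are all of Lpcat1, share a target gene and are not independent of each other. Without leptin replicate 1, the lowest array for 1451359_at, its difference was -0.08.

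**Figure D2:**
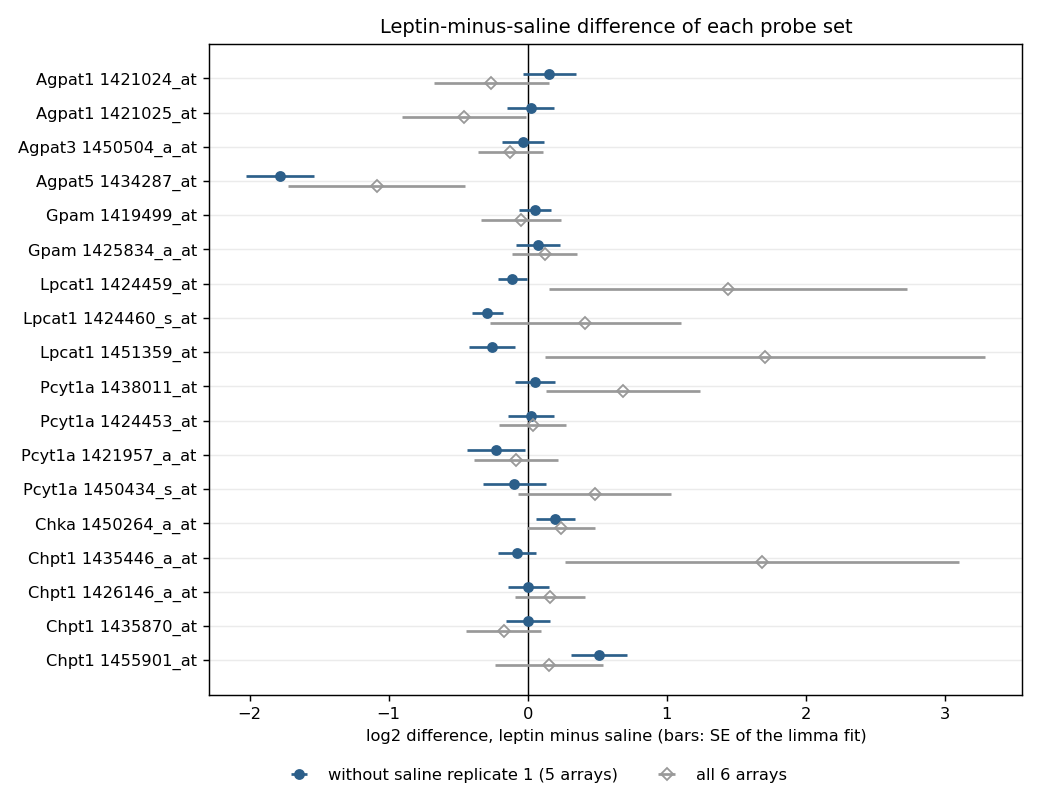
Log2 difference, leptin minus saline, of each of the 18 probe sets on 5 arrays without saline replicate 1 (filled circles) and on all 6 arrays (open diamonds), with bars for the SE of the limma fit. On 5 arrays all related enzymes lie between -0.29 and 0.51 and Agpat5 at -1.78, and with all 6 arrays Lpcat1 and 1 Chpt1 probe set move to as much as 1.71 with wide bars.

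With saline replicate 1 included, 9 of the 17 related probe sets had the other sign and 8 kept theirs. The related median became 0.15, with 11 of 17 higher (51.3% of all probe sets were), and the range widened to -0.46 to 1.71. None passed the limma threshold (adjusted p = 0.715 to 0.941), 0 of 17 had an unadjusted p under 0.05 (0.385% of all probe sets did), and 0 of 17 separated the groups (9.1% of all did). Only 8 of 17 had a 95% interval within -1 to 1, as did 24.9% of all probe sets.

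That array read low for some members and high for others. Lpcat1 read 476.5, 2396.2 and 39.7 on it for 1424459_at, 1424460_s_at and 1451359_at, so the mean of the other 5 arrays was 25.2, 3.89 and 83.7 times higher. The Lpcat1 differences turned from negative on 5 arrays to 1.44 ± 1.29, 0.41 ± 0.69 and 1.71 ± 1.58 (SE) on 6. Chpt1 read 15.2 there for 1435446_a_at against 1278.0 to 1524.8 elsewhere, yet 882.4 for 1435870_at against 542.4 to 654.3. Agpat1 was instead higher on it, at 775.2 and 905.1, or 2.28 and 2.80 times the mean of the other arrays, and its 2 differences turned to -0.26 and -0.46. Agpat3, Chka and both Gpam probe sets stayed within 1.23-fold of the mean of the others. Pcyt1a read 249.1 and 68.3 there for 1438011_at and 1450434_s_at, and the mean of the other arrays was 4.10 and 3.98 times higher. For 1424453_at and 1421957_a_at it read 651.1 and 287.8, or 0.96 and 0.79 times that mean. The probe sets of Chpt1 thus went different ways on this array, and only some of Pcyt1a were far lower. All 3 of Lpcat1 were low and both of Agpat1 high.

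Of 50 other genes of glycerophospholipid metabolism, 39 had a probe set and were tested. On 5 arrays 14 were higher and 25 lower with leptin, where 50.3% of all probe sets were higher. The median was -0.06 on the log2 scale and the range -0.58 to 0.20. Of the 39, 5 were lower without overlap and 0 higher, where 9.66% and 9.92% of all probe sets were. None passed the limma threshold (smallest adjusted p = 1.00), and 2 (5.13%) had an unadjusted p under 0.05, beside 4.6% of all probe sets. On 6 arrays 0 of 39 passed either, and the median was 0.23. Each gene is represented by its brightest tested probe set.

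Among the acyltransferases next to the Agpat family, Gpat4, a glycerol-3-phosphate acyltransferase, was at -0.24 ± 0.19 (SE) and Lclat1, which acylates lysocardiolipin, at 0.00 ± 0.14. The lysophospholipid acylation list had 2 of 6 genes higher, and Mboat1 had its smallest p at -0.31 ± 0.20. Of the phosphatidate phosphatases and lipins, which make diacylglycerol, 1 of 6 was higher. Lpin2 read 3500.3, 3811.0 and 3411.4 with leptin, against 3890.1 and 4637.9 on saline replicates 2 and 3, without overlap, at -0.25 ± 0.12. Of all probe sets 9.66% were lower without overlap. Saline replicate 1, at 1162.7, lay below all leptin arrays, and on 6 arrays the Lpin2 difference was 0.37 ± 0.57.

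In the rest of the choline and ethanolamine branch 4 of 8 genes were higher and 4 lower. Slc44a4, a choline transporter-like protein, read 272.1, 291.1 and 321.2 with leptin, against 432.9 and 377.5 on saline replicates 2 and 3. The groups did not overlap, and saline replicate 1, at 431.2, also lay above all leptin arrays. The difference was -0.43 ± 0.17 (SE, limma adjusted p = 1.00) on 5 arrays and -0.46 (adjusted p = 0.715) on 6.

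In the CDP-diacylglycerol branch, which leads to phosphatidylinositol, phosphatidylglycerol and cardiolipin, 3 of 7 genes were higher. Tamm41, the mitochondrial CDP-diacylglycerol synthase, read 144.3, 101.1 and 108.4 with leptin, against 195.8 and 175.6 on saline replicates 2 and 3. The difference was -0.58 ± 0.23 (SE, limma adjusted p = 1.00), and saline replicate 1, at 110.2, lay inside the leptin range. All 5 genes of the triacylglycerol branch were slightly lower, at -0.18 to -0.02, with Mgll, monoacylglycerol lipase, at -0.18 ± 0.15. Of the phospholipid remodelling genes 4 of 5 were higher, with Pla2g4a, a cytosolic phospholipase, at 0.18 ± 0.18.

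**Figure D3:**
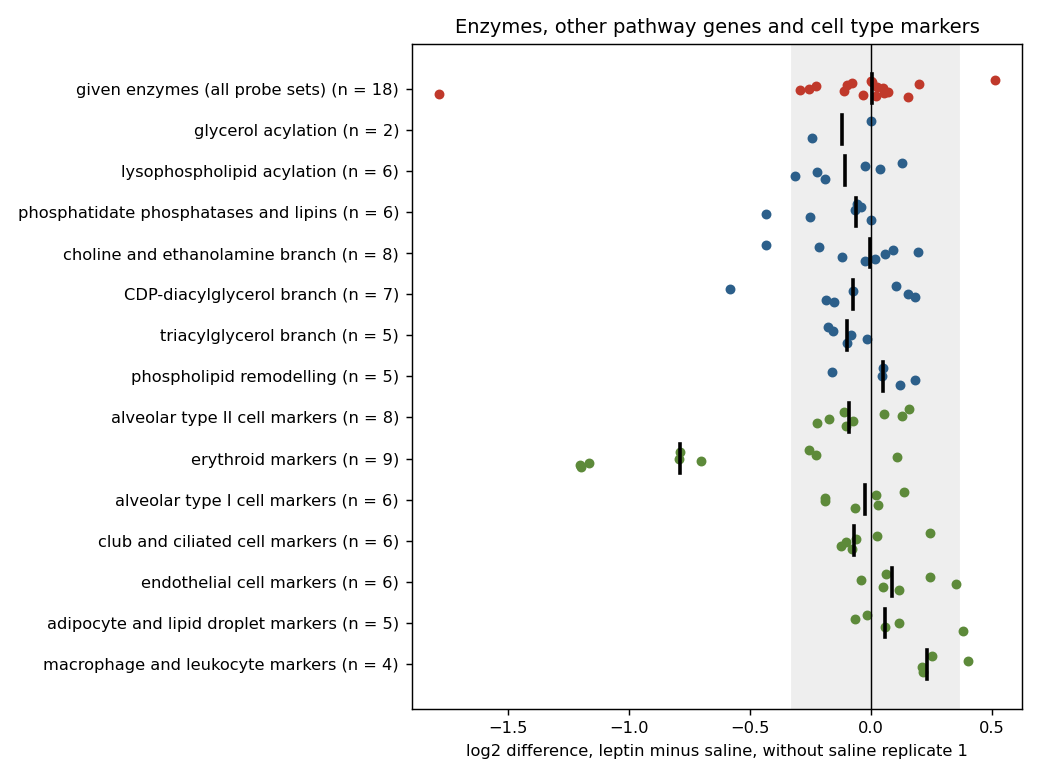
Log2 difference, leptin minus saline, on 5 arrays without saline replicate 1, for the 18 probe sets of the enzymes (red), the genes of the other lipid lists (blue) and cell type markers (green), 1 point per gene in the lists, with a bar at each median. The grey band spans the 5th to the 95th percentile of all 15838 probe sets, -0.33 to 0.36. Agpat5 lies alone at -1.78 in the top row, and the erythroid markers, with a median of -0.79, are the list shifted to the left.

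The genes whose pattern over the 5 arrays was most like that of Agpat5 were found by the root mean square difference of log2 values centred on each probe set's own mean. Since Agpat5 was chosen for its contrast, genes with the same contrast come first by construction, so the order is a description. The 5 nearest were Rassf1 at 0.28, Slc25a37 at 0.32, Gnmt at 0.33, Bpgm at 0.35 and Alas2 at 0.36 on the log2 scale, against a median of 0.91 over all tested probe sets. Rassf1 is a tumour suppressor, Gnmt methylates glycine in one-carbon metabolism, and Slc25a37, Bpgm and Alas2 belong to iron, phosphoglycerate and haem metabolism of red cells.

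On the array kept apart, Agpat5 and all of these genes but Rassf1 had their lowest value. Rassf1 read 353.4 on saline replicate 1, between its leptin values of 153.7 to 260.9 and its values of 737.9 and 643.7 on saline replicates 2 and 3. Slc25a37 read 52.2 against 637.3 to 1690.7 on the other arrays, and Alas2 read 42.2 against 2846.1 to 8448.6. Gnmt read 45.4 there against 85.5 to 351.3, and Bpgm 142.4 against 618.9 to 1828.7. Agpat5 was at 72.1 against 92.2 to 490.3.

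**Figure D4:**
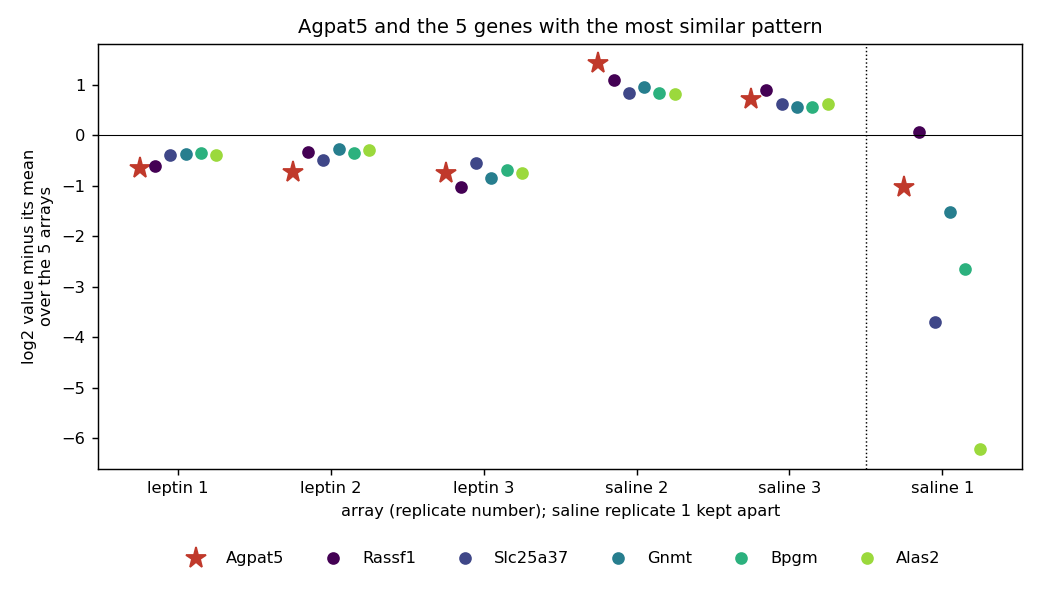
Log2 values of Agpat5 (star) and of the 5 genes with the most similar pattern, each minus its own mean over the 5 arrays, by array, with saline replicate 1 to the right of the dotted line. The 6 genes lie below 0 on each leptin array and above 0 on saline replicates 2 and 3, and they spread widely on saline replicate 1.

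Most markers of red cell precursors were, like Agpat5, lower with leptin on 5 arrays. Of 14 erythroid markers, a list written with earlier results of these data known, 11 had a probe set and 9 were tested. There 8 of 9 were lower, where 50.3% of all probe sets were higher. The median was -0.79 on the log2 scale, which is the value of Hbb-b2, whose groups overlapped. Hbb-b2 read 466.2, 423.1 and 287.4 with leptin, against 1163.3 and 393.0 on saline replicates 2 and 3. The summed level of the 11 was 8865 to 10142 on leptin arrays, against 20081 and 16569 on saline replicates 2 and 3 and 3592 on saline replicate 1. Not all of the 11 were low on that array. Klf1 read 1077.6 there against 105.7 to 138.4 on the other arrays. Epb42 read 209.8 against 18.1 to 33.9, and Hba-a1 180.6 against 60.6 to 166.5. The rest were lowest there or within the range of the other arrays. Alas2 at -1.20 ± 0.15 (SE), Slc25a37 at -1.20 ± 0.14 and Bpgm at -1.16 ± 0.16 passed the threshold (limma adjusted p = 0.0496 for each). Of all probe sets 0.0442% passed. The list was not independent of these data, and these 3 genes were also picked for likeness to Agpat5 by the same contrast. Their calls are therefore a description. With the replicate number as a block each had an adjusted p of 0.0941, and 0 of the 3 passed with quantile normalization, common medians, a pseudocount of 1, no filter or no trend (adjusted p = 0.0529 to 0.353). With all 6 arrays the list median was -0.16, with 3 of 9 higher, and 0 passed: Alas2 was at 1.12 (adjusted p = 0.765), Slc25a37 at 0.27 (0.906) and Bpgm at -0.04 (0.981). Klf1 was at 0.11 ± 0.23 on 5 arrays, and no marker was listed at 0. Epb42, below the filter, was higher with leptin, at 33.9, 28.2 and 22.1 against 18.1 and 18.4 on saline replicates 2 and 3. Hba-a1, also below the filter, was lower, at 60.6, 65.0 and 93.3 against 166.5 and 94.9. In bulk tissue, fewer cells of a type and less RNA per cell cannot be told apart. The part of red cell precursors in the Agpat5 difference was not tested.

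Markers of alveolar type II cells, which make surfactant, lay closer together. Of 8 tested markers 3 were higher and 5 lower on 5 arrays, with a median of -0.09, and 0 passed the threshold. Their summed level was 99689 to 112060 on leptin arrays, against 113482 and 113607 on saline replicates 2 and 3 and 14969 on saline replicate 1. Sftpb, a surfactant protein, was at -0.22 ± 0.10 (SE, limma adjusted p = 1.00), without overlap between groups. The remaining marker lists had medians of -0.02 for alveolar type I, -0.07 for club and ciliated, 0.09 for endothelial, 0.06 for adipocyte and 0.23 for macrophage and leukocyte genes, and none of their members passed.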

How the data were processed

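The authors deposited an intensity value on a linear scale for each probe set and array. The software that summarised the probes is not stated in any source used. A mean trimmed by 2% at each end was 500.1 on every array, so the deposited intensity values had been scaled. Per the labels' protocols, total RNA was amplified over repeated rounds, primed at the poly(A) tail. Of 22690 probe sets, 64 controls were left out, 20380 have 1 symbol, 691 several and 1555 none, by the platform annotation updated through a RefSeq table (GRCm38.p6), which changed 0 symbols.

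Values were taken as log2(intensity + 22.0), the 10th percentile, without the 30% of lowest mean. The remaining 15838 probe sets entered a two-sided test by lmFit and eBayes with trend (limma 3.58.1, R 4.3.3), with Benjamini-Hochberg adjustment at 0.05. The fits were tested on simulated data. Its means and spread came from the 5 arrays for both fits, so no array like saline replicate 1 was simulated. The members and gene lists were chosen with earlier results of these data known. Named beside the members were, per lipid list, the gene with the smallest p on 5 arrays, and the 5 genes most like Agpat5, clone-like names left out. Lclat1, Sftpb, Klf1, Uty, Eif2s3y, Kdm5d, Xist, Scgb1a1, Scgb3a1, Scgb3a2, Cyp2f2 and the erythroid genes were named after their values were seen.

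Arrays that share a replicate number deviated together from the group means, with correlations of 0.103 to 0.144, against -0.147 to 0.0491 for other pairs, so by the values alone the replicate numbers may pair the samples. The labels do not say so. Saline replicate 1 was included in these correlations. They are not independent of each other, since deviations from a group mean cancel out within the group. The number of arrays limits the precision. Alternatives were scaling, pseudocount, filter, block, variance prior, array weights, probe set averaging, threshold and leaving out each array.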

Additional observations from a re-analysis of the deposited data

How the results depend on the processing

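Under each alternative run, 0 of the 17 related probe sets passed the threshold on 5 or on 6 arrays, and averaging the probe sets of a gene gave 0 as well. Over all probe sets, 7 passed on 5 arrays, and the count was 0 under the replicate block, without the trend, without the filter, at a pseudocount of 1, and after either quantile or median scaling, and 13 at an adjusted threshold of 0.10. Leaving out a further array gave 0 to 3, with 0 without leptin replicate 1 or saline replicate 3. On 6 arrays 8 passed with array weights, and 0 to 7 when an array was left out, the 7 without saline replicate 1. The cause of these losses was not tested.

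The Agpat5 difference stayed negative in every alternative run for which it was recorded. On 5 arrays it was -1.40 with a pseudocount at the 25th percentile (79.9), -1.81 with the replicate block, and -2.13 to -1.43 when an array was left out. On 6 arrays it was -1.85 with array weights, -0.81 after quantile scaling and -1.78 to -0.91 when an array was left out, and without saline replicate 2 it fell below the filter. The replicate block left it at -1.08 there and changed no call of a related enzyme. A common median raised the median of all probe sets on 6 arrays by 0.15, and 14 of 17 related probe sets were then higher.

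Small differences changed sign, and on 6 arrays so did the large ones of Lpcat1 and Chpt1 1435446_a_at when saline replicate 1 was left out. On 6 arrays Pcyt1a 1421957_a_at was at 0.068 with quantile normalization and 0.062 with a common median, which also turned Gpam 1419499_at to 0.098 and Agpat3 to 0.022. On 5 arrays Chpt1 1435870_at was at -0.0048 with quantile normalization and -0.012 with a common median, which gave -0.010 for 1426146_a_at. The replicate block on 5 arrays turned Agpat1 1421025_at to -0.046, Pcyt1a 1424453_at and 1438011_at to -0.091 and -0.030, Gpam 1425834_a_at to -0.022 and Chpt1 1426146_a_at to -0.060. Leaving out an array turned other signs, with these ranges on 5 arrays. Agpat1 ran from -0.03 to 0.34 for 1421024_at and from -0.065 to 0.11 for 1421025_at. Agpat3 ran from -0.13 to 0.062 for 1450504_a_at. Chpt1 ran from -0.06 to 0.054 for 1426146_a_at and from -0.11 to 0.11 for 1435870_at. Gpam ran from -0.022 to 0.12 for 1425834_a_at. Pcyt1a ran from -0.49 to 0.032 for 1421957_a_at, from -0.091 to 0.14 for 1424453_at, from -0.03 to 0.12 for 1438011_at and from -0.39 to 0.20 for 1450434_s_at. The ranges on 6 arrays follow. Agpat1 ran from -0.56 to 0.15 for 1421024_at and from -0.74 to 0.022 for 1421025_at. Chpt1 ran from -0.079 to 2.58 for 1435446_a_at, from -0.32 to 0.0030 for 1435870_at and from -0.081 to 0.51 for 1455901_at. Gpam ran from -0.12 to 0.053 for 1419499_at. Lpcat1 ran from -0.11 to 2.23 for 1424459_at, from -0.29 to 0.80 for 1424460_s_at and from -0.25 to 2.69 for 1451359_at. Pcyt1a ran from -0.23 to 0.12 for 1421957_a_at, from -0.082 to 0.15 for 1424453_at and from -0.097 to 0.92 for 1450434_s_at. A saline group left with 1 array is assumed to vary like the others.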
